A study of Mus musculus with 15 samples.

Results

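Expression of 10 genes encoding ubiquitin ligases of muscle atrophy, out of 30672 genes in the count table, was described in the tibialis anterior of *Mtm1*-deficient and wild-type mice with and without tamoxifen. The members were *Trim63*, *Trim54*, *Trim55*, *Fbxo32*, *Fbxo30*, *Fbxo21*, *Fbxo40*, *Nedd4*, *Traf6* and *Cblb*, chosen by symbol through the Ensembl gene identifier of each row. All 10 were among the 15533 genes that passed the filter on low counts. RNA-seq had been performed on 15 males of the 129Pas strain aged 7 weeks, with 4 untreated wild types (WT), 4 tamoxifen-treated wild types (WT + TAM), 4 untreated *Mtm1*-/y males and 3 tamoxifen-treated *Mtm1*-/y males (*Mtm1*-/y + TAM). *Mtm1*-/y males lack myotubularin, a phosphoinositide phosphatase encoded on the X chromosome whose loss causes X-linked myotubular myopathy, and tamoxifen is a selective modulator of oestrogen receptors. The sources used here give neither the dose, the route nor the duration of tamoxifen, and do not state what the untreated mice received.

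Ubiquitin ligases are the last enzymes of the cascade that attaches ubiquitin to proteins, and they decide which protein is marked, often for breakdown by the proteasome. In skeletal muscle, the genes *Trim63* (MuRF1) and *Fbxo32* (atrogin-1, also called MAFbx) are widely used as markers of wasting, because fasting, denervation, unloading and glucocorticoids all raise them. FOXO transcription factors, which insulin and IGF1 signalling keep out of the nucleus, are the best known activators of both. *Trim55* (MuRF2) and *Trim54* (MuRF3) are relatives of *Trim63* whose proteins bind the sarcomere and microtubules. *Fbxo30* (MUSA1) and *Fbxo21* (SMART) encode other F-box proteins that are needed for full denervation atrophy, *Fbxo40* and *Cblb* encode ligases that lower insulin and IGF1 signalling, *Traf6* encodes a ligase of inflammatory signalling and *Nedd4* a ligase of the HECT type.

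The promoter windows of 3 members are printed because they hold, or lack, letters that regulators of the pathway are known to bind. *Trim63* and *Trim54* are related genes that behaved differently in the mutant, and *Fbxo30* was the member called in both genotype comparisons. The sequences were taken from RefSeq (GRCm38.p6) and run from 250 bases before to 50 bases after the annotated start, which matched 8 of the 10 members. Capitals mark matches, on either strand, to the FOXO site TGTTTAC and to the E-boxes CAGCTG and CAGGTG, which myogenic factors can bind. The shorter core TGTTT, which is contained in TGTTTAC, was searched too and is not marked.
Trim63, chr4:134314870-134315169, plus strand: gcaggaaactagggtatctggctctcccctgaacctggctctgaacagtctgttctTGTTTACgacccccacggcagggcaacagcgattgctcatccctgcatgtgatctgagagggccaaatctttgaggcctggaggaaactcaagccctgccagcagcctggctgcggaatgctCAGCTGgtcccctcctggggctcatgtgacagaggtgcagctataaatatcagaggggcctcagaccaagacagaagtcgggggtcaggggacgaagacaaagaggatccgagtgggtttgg
Trim54, chr5:31116362-31116661, plus strand: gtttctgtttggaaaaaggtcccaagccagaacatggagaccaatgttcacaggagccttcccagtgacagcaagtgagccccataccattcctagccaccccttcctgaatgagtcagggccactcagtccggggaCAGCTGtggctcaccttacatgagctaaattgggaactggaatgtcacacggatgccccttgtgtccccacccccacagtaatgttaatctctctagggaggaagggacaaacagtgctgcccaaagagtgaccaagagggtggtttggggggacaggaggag
Fbxo30, chr10:11281337-11281636, plus strand: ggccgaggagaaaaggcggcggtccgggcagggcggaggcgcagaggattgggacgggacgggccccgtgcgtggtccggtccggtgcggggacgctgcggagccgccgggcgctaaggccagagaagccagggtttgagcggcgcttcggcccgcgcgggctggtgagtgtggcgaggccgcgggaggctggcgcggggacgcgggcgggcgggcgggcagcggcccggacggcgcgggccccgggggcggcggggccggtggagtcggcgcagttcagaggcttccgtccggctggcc

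Counted from the annotated start, with upstream bases negative, TGTTTAC lay at -194 to -188 of *Trim63* and in none of the other windows of the 8 members. *Fbxo40* and *Nedd4* had a pair of windows each, so that the 8 members had 10, and 3.6% of the 32851 windows in the table held this motif. The *Trim63* window also held CAGCTG at -72 to -67, and the *Trim54* window held it at -113 to -108. CAGCTG was found in 5 of the 10 windows (*Trim63*, *Trim54*, both of *Fbxo40* and 1 of *Nedd4*) and in 16.3% of all windows, and CAGGTG was found in 1 window (*Fbxo40*) and in 20.2% of all. TGTTT was found in 6 of the 10 windows and in 50.5% of all. The *Fbxo30* window held no match to any of these motifs and had a GC content of 79.7%, against 57% for *Trim63* and 54% for *Trim54*. This window began at base 11281337, past the gene start in GENCODE (11281330), so it held no sequence upstream of that start. The *Trim54* window ended at base 31116661, before the gene start in GENCODE (31116712). Sequence outside the windows was not searched. These matches describe letters in the windows only, and no binding was measured. *Fbxo32* and *Trim55* were not in the table.

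The libraries held 18042558 to 45823277 counts, and each member had at least 256 counts in every library, the lowest being *Fbxo21*. *Mtm1* itself averaged 15.2 ± 0.294 CPM among WT and 3.35 ± 0.338 CPM among *Mtm1*-/y mice (SD, n = 4 each), where CPM are counts scaled to a common library size with TMM factors. It was also low in *Mtm1*-/y + TAM mice, with 3.48 ± 0.381 CPM (SD, n = 3) against 16.3 ± 1.88 CPM in WT + TAM mice (SD, n = 4). *Mtm1*-/y replicate 1 stood apart from the other mutant libraries on the second principal component of all genes (score -69.1, against -9.23 to 33.5 for the other 6) and WT + TAM replicate 1 stood apart on the third (-73.1, against -3.91 to 11.6 for the other 14). All 8 fast fibre markers were detected in each group, with summed levels of 164813 to 269307 CPM over the 15 libraries, as in a fast-contracting muscle, the tissue on the labels. Slow fibre markers summed to 1376 CPM in WT + TAM replicate 1 and to 68.3 to 265 CPM in the other libraries. Samples were bulk muscle, so a lower share of a cell type and less RNA per cell cannot be told apart.

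Since a longer gene collects more reads, the members were ranked by TPM, a level per length computed by dividing the counts by the summed exon length and scaling each library to the same total. In WT muscle, *Trim54* was the most abundant member with 692 ± 56.4 TPM (SD, n = 4, as for the other WT levels), and its lowest library (610 TPM) lay above every WT value of the other members. *Trim63* (230 ± 62.1 TPM) and *Fbxo40* (196 ± 37.8 TPM) came next with overlapping libraries, followed by *Nedd4* (130 ± 6.11 TPM), all of whose libraries were below these 2, and by *Trim55* (78.7 ± 3.14 TPM) and *Fbxo32* (65 ± 26.8 TPM). The ranges of *Trim55* and *Fbxo32* overlapped. The position of *Nedd4* turned with the length used, since the longest transcript put its 4 WT libraries at 201 to 226 TPM, with a mean above that of *Fbxo40* (128 to 207 TPM) and within the range of *Trim63* (174 to 336 TPM). *Trim54* shares 382 of its 1436 exonic bases with an antisense gene, and the effect of this on its counts was not tested. A much lower tier held *Traf6* (7.87 ± 0.654 TPM), *Fbxo30* (7.05 ± 0.363 TPM), *Fbxo21* (6.74 ± 0.544 TPM) and *Cblb* (4.80 ± 0.63 TPM), of which the first 3 overlapped. With the longest transcript *Fbxo30* (5.95 TPM) had the lowest mean of these 4. In *Mtm1*-/y muscle, *Trim54* (810 ± 86.7 TPM) overlapped with *Trim63* (726 ± 399 TPM), whose mean was the higher with the longest transcript (886 against 658 TPM), and *Fbxo32* reached 238 ± 180 TPM, overlapping with *Fbxo40* (217 ± 28.8 TPM) and *Nedd4* (190 ± 33.5 TPM, SD, n = 4 for each). With the longest transcript *Nedd4* (308 TPM) was above *Fbxo32* (193 TPM) and *Fbxo40* (189 TPM) by its mean. *Fbxo30*, with 15 ± 2.89 TPM (SD, n = 4), then led the low tier by its mean, although its lowest library (10.8 TPM) lay within the range of *Fbxo21* (7.58 to 12.9 TPM).

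**Figure D1:**
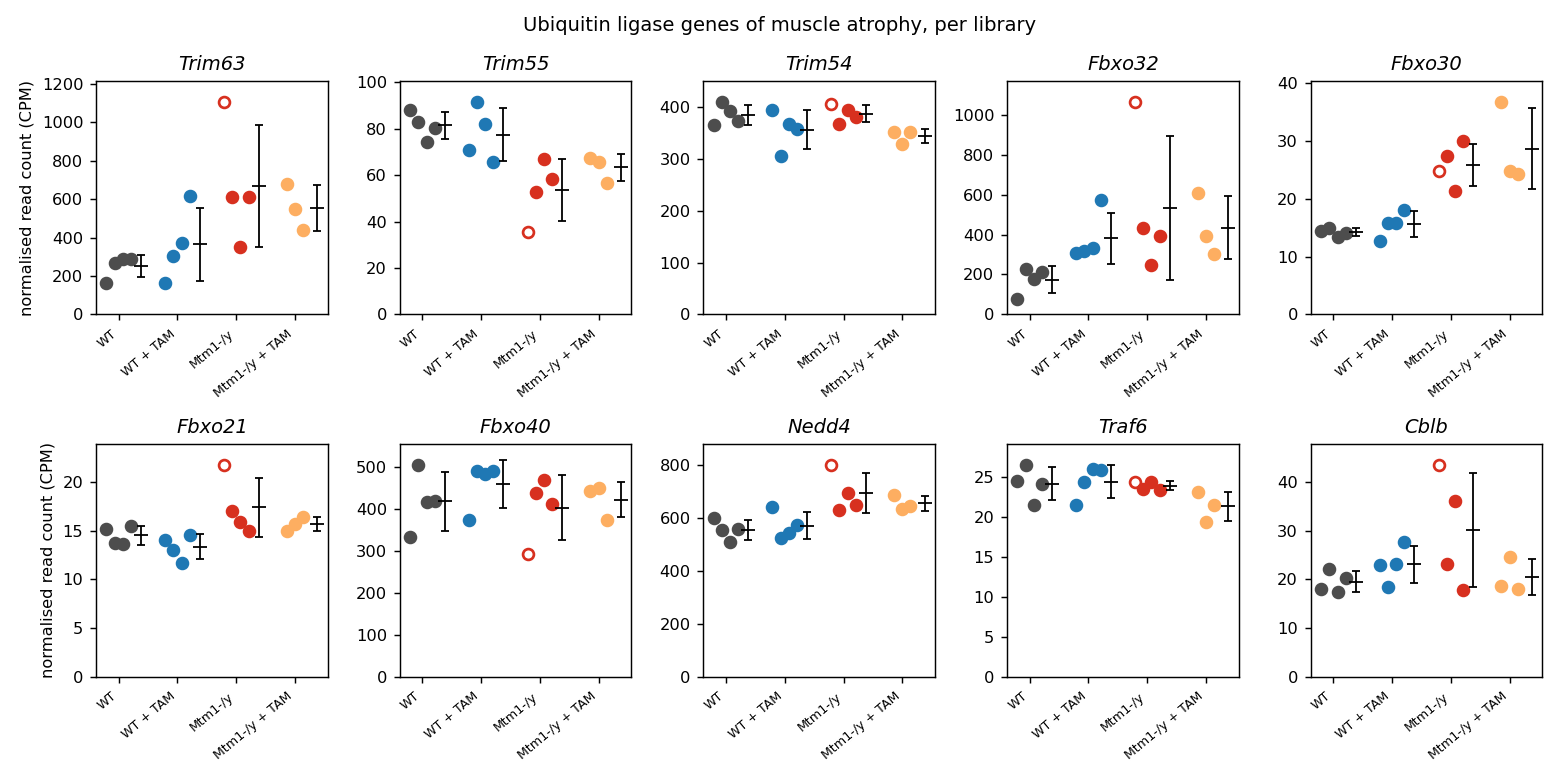
Normalised read counts (CPM, linear axis from 0) of the 10 ligase genes in each library, by group, with the group mean and SD as a bar at the right of each group and *Mtm1*-/y replicate 1 as an open circle. The 7 mutant libraries of *Fbxo30* sit between 21.3 and 36.7 CPM, above the 8 wild-type libraries at 12.7 to 18.1 CPM, whereas *Trim54* stays between 305 and 410 CPM in all 15.

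The comparison of untreated *Mtm1*-/y with WT muscle shows how the ligase genes stood with and without myotubularin. *Trim63*, *Fbxo32*, *Fbxo30*, *Nedd4* and *Cblb* were higher in the mutant and *Trim55* was lower, by 0.32 to 1.62 on the log2 scale in size. Thus 6 of the 10 members were called by edgeR at an adjusted p under 0.05, 5 higher and 1 lower, where 30.4% of all tested genes were called, 15.5% higher and 14.9% lower. The libraries of both groups did not overlap for 5 of the 10, against 30.5% of all genes. The median log2 fold change of the members was 0.29, against 0.00047 for all genes. Without *Mtm1*-/y replicate 1, 3 members were called (*Trim63*, *Trim55* and *Fbxo30*), close to the 29.6% of all genes called in that fit, and the median over the 10 members was 0.19.

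Of the MuRF genes, *Trim63*, whose protein targets thick-filament proteins, measured 166, 266, 287 and 286 CPM in WT replicates 1 to 4 and 1104, 610, 349 and 612 CPM in *Mtm1*-/y replicates 1 to 4. Every mutant library lay above every WT library, with replicate 1 far above the rest and replicate 3 close to the WT range. *Trim63* was higher by 1.41 on the log2 scale (SE 0.39, adjusted p 0.0146), a 2.66-fold rise, and by 1.06 (SE 0.37, adjusted p 0.0487) without *Mtm1*-/y replicate 1. *Trim55*, whose protein takes part in signalling from the titin kinase, measured 88, 83, 74.4 and 80.3 CPM in WT and 35.7, 52.6, 67.2 and 58.5 CPM in *Mtm1*-/y mice. The mutants were all below the WT mice, and the library highest for *Trim63* was the lowest for *Trim55*. *Trim55* was thus changed by -0.61 (SE 0.15, adjusted p 0.00856), and by -0.45 (SE 0.12, adjusted p 0.00971) without that library. *Trim54* averaged 386 ± 19.7 CPM among WT and 388 ± 16.6 CPM among mutant mice (SD, n = 4 each), and the difference on the log2 scale was 0.01 (SE 0.09, adjusted p 0.959). *Trim54* therefore differed by less than the spread between mice.

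Among the F-box genes, *Fbxo32*, the substrate adaptor of an SCF ligase with MyoD and eIF3f among its known targets, measured 76.5, 228, 179 and 212 CPM in WT and 1061, 433, 249 and 390 CPM in *Mtm1*-/y mice. The groups did not overlap, although the lowest mutant (249 CPM, replicate 3) was near the highest WT mouse (228 CPM). The difference of 1.62 on the log2 scale (SE 0.45, adjusted p 0.0158) became 1.04 (SE 0.37, adjusted p 0.0527) without *Mtm1*-/y replicate 1, so that the call rested on that library. *Fbxo30*, a ligase gene that BMP signalling is known to repress in denervated muscle, measured 14.5, 14.9, 13.4 and 14.2 CPM in WT and 24.8, 27.4, 21.3 and 29.9 CPM in *Mtm1*-/y mice. All mutant values were well above the WT range, and replicate 1 was not the highest of them. Its log2 fold change of 0.86 (SE 0.14, adjusted p 0.000474) was 0.88 (SE 0.15, adjusted p 0.000639) without that library. *Fbxo21* (14.5 ± 0.942 CPM in WT, 17.4 ± 3 CPM in *Mtm1*-/y, SD, n = 4 each) was not called, the difference being 0.26 on the log2 scale (SE 0.11, adjusted p 0.0941) and 0.13 without *Mtm1*-/y replicate 1, its highest library at 21.7 CPM. *Fbxo40*, a muscle F-box gene whose product ubiquitinates IRS1, was not called either (418 ± 70.4 against 403 ± 77 CPM, SD, n = 4 each, log2 fold change -0.05, SE 0.15).

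Of the remaining ligases, *Nedd4* measured 599, 557, 509 and 561 CPM in WT and 801, 631, 695 and 651 CPM in *Mtm1*-/y mice. The groups did not overlap, but the distance between them was small. Its log2 fold change of 0.32 (SE 0.10, adjusted p 0.0266) became 0.25 (adjusted p 0.0638) without *Mtm1*-/y replicate 1, and it also missed the threshold without WT replicate 2 (0.0593), WT replicate 3 (0.0795) or WT replicate 4 (0.0564). *Cblb*, whose product acts on IRS1 in unloaded muscle, measured 18.1, 22.2, 17.4 and 20.4 CPM in WT and 43.4, 23.1, 36 and 17.8 CPM in *Mtm1*-/y mice. Mutant replicates 1 and 3 stood high, and replicates 2 and 4 lay next to or within the WT range. Its log2 fold change was 0.63 (SE 0.23, adjusted p 0.049), and the call was lost in 13 of the 15 fits that left out a library, with adjusted p of up to 0.165 and a log2 fold change of 0.39 without *Mtm1*-/y replicate 1. *Traf6* averaged 24.1 ± 2.06 CPM among WT and 23.9 ± 0.573 CPM among mutant mice (SD, n = 4 each), with a difference of -0.02 on the log2 scale (SE 0.09).

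Markers of other cell types differed between the same groups, where 15.5% of all tested genes were called higher and 14.9% lower. All 6 endothelial markers were lower in *Mtm1*-/y mice, with sums of 424 to 542 CPM in WT and 220 to 297 CPM in *Mtm1*-/y mice. Of the 5 satellite cell markers 3 were lower (sums of 39.7 to 44.6 and 29 to 48.4 CPM), and 2 of 8 macrophage markers (19.9 to 39.7 and 26 to 74.8 CPM) and 2 of 6 Schwann cell markers (68.2 to 98.4 and 89.8 to 126 CPM) were higher. Of the fast fibre markers 2 of 8 were lower, with sums of 202108 to 269307 CPM in WT and 164813 to 215752 CPM in *Mtm1*-/y mice. Of the slow fibre markers 1 of 8 was lower, although their sums were higher in *Mtm1*-/y mice (109 to 140 CPM) than in WT (82.6 to 108 CPM). Of the 7 fibroblast markers 1 was higher. Without *Mtm1*-/y replicate 1, 4 satellite cell markers and 1 fast fibre marker were lower and 1 Schwann cell marker was higher. In that fit 29.6% of all genes were called in either direction. *Mtm1*-/y replicate 1 had the lowest sums of fibroblast (367 CPM), erythroid (14.9 CPM) and fast fibre (164813 CPM) markers of the 15 libraries. No marker was at 0 in all libraries of a group, and the part of these differences in the ligase values was not tested.

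**Figure D2:**
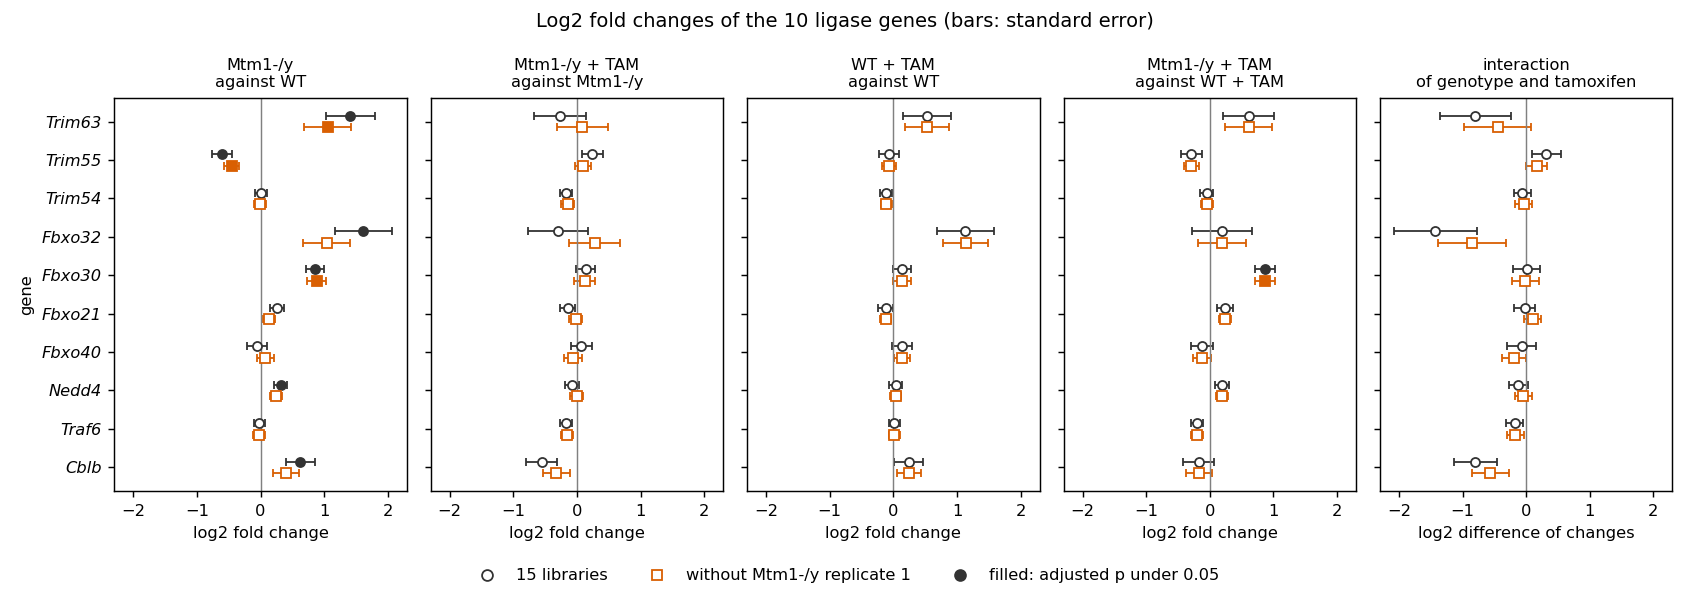
Log2 fold changes of the 10 ligase genes with their standard errors in the 4 comparisons, and the difference of changes in the interaction, from all 15 libraries (circles) and without *Mtm1*-/y replicate 1 (squares), with filled symbols for an adjusted p under 0.05. In untreated *Mtm1*-/y against WT muscle 6 circles and 3 squares are filled, and under tamoxifen only *Fbxo30* is filled.

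Tamoxifen in the mutant was examined by comparing *Mtm1*-/y + TAM with *Mtm1*-/y mice. No member was called by edgeR, DESeq2 or limma-voom, and 1 had an unadjusted p under 0.05, where edgeR called 0.0129% of all genes. *Trim63* measured 679, 547 and 441 CPM in the 3 treated mutants, all within the range of the untreated ones, and its log2 fold change of -0.27 (SE 0.41) turned to 0.09 (SE 0.40) without *Mtm1*-/y replicate 1. *Fbxo32* measured 609, 395 and 302 CPM, likewise within the untreated range, and its value of -0.30 (SE 0.48) turned to 0.28 (SE 0.40) without that library. The direction of both markers of wasting under tamoxifen thus rested on a single untreated mouse. *Cblb* had the largest change in size, from 30.1 ± 11.7 (SD, n = 4) to 20.4 ± 3.66 CPM (SD, n = 3), or -0.56 on the log2 scale (SE 0.25, unadjusted p 0.0398, adjusted p 0.855 by edgeR), and of -0.32 without *Mtm1*-/y replicate 1.

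*Fbxo30* measured 36.7, 24.8 and 24.4 CPM in the treated mutants (log2 fold change 0.14, SE 0.15), and *Trim55* measured 67.3, 65.9 and 56.8 CPM (0.24, SE 0.17). Both ranges overlapped with those of the untreated mutants. *Trim54* (344 ± 13.9 CPM, SD, n = 3) and *Traf6* (21.3 ± 1.86 CPM, SD, n = 3) lay below all untreated mutants, by -0.17 each (SE 0.10), without being called. Groups that did not overlap were found for 5.7% of all genes in this comparison, and for these 2 of the 10 members. *Nedd4*, *Fbxo21* and *Fbxo40* had log2 fold changes of -0.08 (SE 0.11), -0.15 (SE 0.12) and 0.07 (SE 0.17).

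In wild-type muscle, tamoxifen left no member called by edgeR, DESeq2 or limma-voom, where edgeR called 0.309% of all genes, and 1 member had an unadjusted p under 0.05. That member was *Fbxo32*, with 306, 317, 331 and 572 CPM in WT + TAM replicates 1 to 4. All 4 lay above the 4 untreated WT values, and replicate 4 was far above the other three. Its log2 fold change was 1.13 (SE 0.44, unadjusted p 0.0237, adjusted p 0.348), and in the alternative fits it ranged from 0.87 to 1.29 with adjusted p of 0.155 to 0.654. It was the 1 member of 10 whose groups did not overlap, against 8.08% of all genes.

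*Trim63* measured 163, 305, 373 and 615 CPM in WT + TAM mice, from a value at the bottom of the WT range to one above the *Mtm1*-/y mean without replicate 1 (523 ± 151 CPM, SD, n = 3). Its log2 fold change was 0.53 (SE 0.38, adjusted p 0.645), and it was 0.16 without WT + TAM replicate 4 or 0.78 without WT + TAM replicate 1. The other 8 members had log2 fold changes of -0.12 (*Fbxo21*) to 0.24 (*Cblb*), with adjusted p of 0.692 (*Trim54*) or more. In WT + TAM replicate 1, 5 members were at their lowest of the group (*Trim63* at 163, *Fbxo32* at 306, *Fbxo30* at 12.7, *Fbxo40* at 375 and *Traf6* at 21.4 CPM) and 2 at their highest (*Nedd4* at 642 and *Trim54* at 395 CPM). Beside its slow fibre signal, that library had the highest sums of fibroblast (4720 CPM, against at most 2231), adipocyte (83 CPM, against at most 23.6) and Schwann cell markers (177 CPM, against at most 126) of the 15, and the lowest endothelial sum of the 8 wild types (296 CPM). The part of these signals in the ligase values was not tested.

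Between *Mtm1*-/y + TAM and WT + TAM mice, the comparison of genotypes under treatment, *Fbxo30* was the single member called of the 10, where 20.1% of all genes were called, 10.6% higher and 9.46% lower. The 3 treated mutants had 36.7, 24.8 and 24.4 CPM and the treated WT mice 12.7, 15.7, 15.8 and 18.1 CPM. All mutant values were above all wild-type values, with a log2 fold change of 0.87 (SE 0.15 and adjusted p 0.00124), next to 0.86 in the untreated mice. *Fbxo21* was also without overlap (15.7 ± 0.719 CPM, SD, n = 3, against 13.3 ± 1.27 CPM, SD, n = 4), but its difference of 0.24 on the log2 scale (SE 0.12, adjusted p 0.19) did not pass. These 2 members without overlap compare with 31.6% of all genes. *Trim63* (0.61, SE 0.41, adjusted p 0.321), *Fbxo32* (0.19, SE 0.47, adjusted p 0.82), *Trim55* (-0.29, SE 0.17, adjusted p 0.243), *Nedd4* (0.20, SE 0.11, adjusted p 0.218) and *Cblb* (-0.17, SE 0.24, adjusted p 0.672) were not called. *Trim63* ranged from 0.37 (without WT + TAM replicate 1) to 0.99 (without WT + TAM replicate 4) when a library was left out. *Fbxo32* ranged from -0.13 (without *Mtm1*-/y + TAM replicate 1), a changed sign, to 0.45 (without WT + TAM replicate 4). Without both *Mtm1*-/y replicate 1 and WT + TAM replicate 1, *Nedd4* (0.26, adjusted p 0.036) and *Traf6* (-0.26, adjusted p 0.0449) were called as well by edgeR. These gained calls were not set against the share of all genes called in that fit. Without *Mtm1*-/y replicate 1 alone, the calls over all genes in this comparison rose from 3121 of 15533 to 4097 of 15286.

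Whether the genotype effect itself differed with treatment was tested by the interaction of genotype with tamoxifen. No member was called, and neither was any other gene by edgeR (0%) or limma-voom, while DESeq2 called 74 genes and no member. Over all genes 1650 had an unadjusted p under 0.05 by edgeR, and of the members *Fbxo32* and *Cblb* did. *Fbxo32* had an interaction of -1.43 (SE 0.65, unadjusted p 0.0469, adjusted p 0.467), which was -0.85 (SE 0.53, unadjusted p 0.133) without *Mtm1*-/y replicate 1. *Cblb* had -0.80 (SE 0.33, unadjusted p 0.0309, adjusted p 0.429), and *Trim63* -0.80 (SE 0.56, adjusted p 0.628). Without *Mtm1*-/y replicate 1 these were -0.57 (unadjusted p 0.0721) and -0.45, so that no member had an unadjusted p under 0.05 in that fit. That *Trim63*, *Fbxo32*, *Trim55*, *Nedd4* and *Cblb* were called between the untreated genotypes and not between the treated ones was therefore not shown to be a difference. *Fbxo30* had an interaction of 0.01 (SE 0.21).

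The balance within the MuRF family was followed as the share of each gene in the summed TPM of the 3 genes. *Trim63* accounted for 22.6 ± 4.07% of the family in WT, 30.4 ± 11.5% in WT + TAM and 43.1 ± 11.3% in *Mtm1*-/y mice (SD, n = 4 each), and for 42.3 ± 5.08% in *Mtm1*-/y + TAM mice (SD, n = 3). The WT libraries ranged from 16.8 to 25.8% and the mutant libraries of both treatments from 29 to 56.7%, so these did not overlap. The WT + TAM libraries, at 15.9, 30.2, 31.4 and 44.2%, spanned both. *Trim55* had 7.96 ± 1.11% of the family in WT and 4.08 ± 1.65% in *Mtm1*-/y mice (SD, n = 4 each), with 1.96% in *Mtm1*-/y replicate 1. *Trim54* was the largest share in every library but *Mtm1*-/y replicate 1, where it had 41.3% and *Trim63* 56.7%. This order depended on the length used, since with the longest transcript *Trim63* was above *Trim54* in 6 of the 15 libraries (WT + TAM replicate 4, *Mtm1*-/y replicates 1, 2 and 4, and *Mtm1*-/y + TAM replicates 1 and 2). Without that library the *Mtm1*-/y share of *Trim63* was 38.5%.

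**Figure D3:**
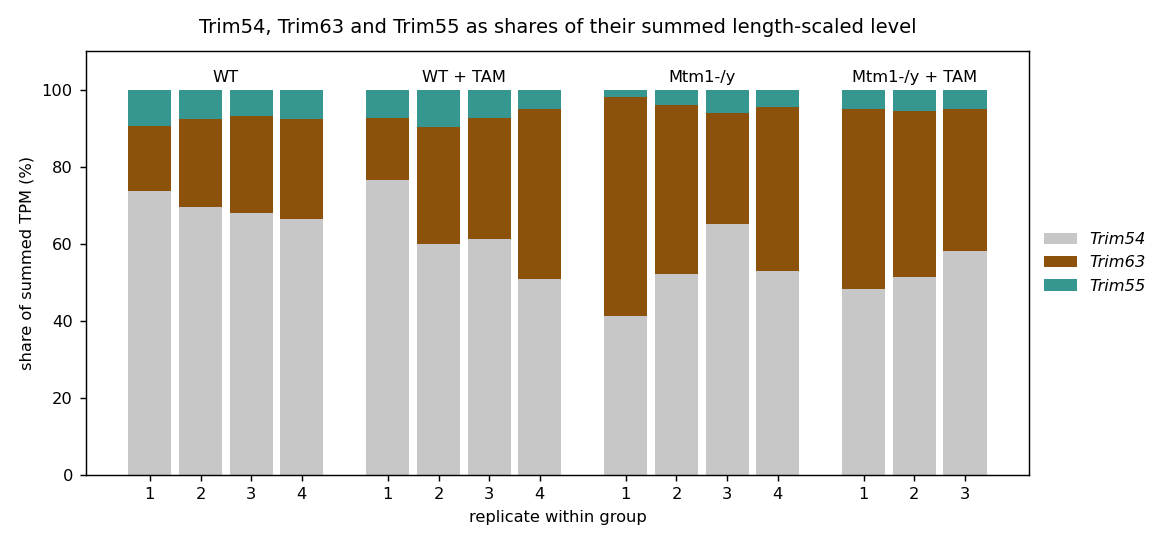
Shares (%) of *Trim54*, *Trim63* and *Trim55* in the summed length-scaled level (TPM) of the 3 MuRF genes, a stacked bar per library, ordered by group and replicate. *Trim63* takes 16.8 to 25.8% in WT and 29 to 56.7% in the 7 mutant libraries, and *Trim55* is the smallest share in all.

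*Trim63* and *Fbxo32* differed between the mice of a group, and both moved together. After removal of the group means, the log2 CPM values of *Trim63* and *Fbxo32* had a Pearson r of 0.84 over the 15 libraries and 0.78 over the 14 without *Mtm1*-/y replicate 1, as a description of libraries that share their preparation and counting. *Fbxo30* followed *Trim63* with r of 0.59 and 0.73 over 15 and 14 libraries. *Trim55* ran opposite to *Trim63* and *Fbxo32* with r of -0.55 and -0.68 over 15 libraries, which shrank to -0.30 and -0.39 over 14. By the same measure over 14 libraries, the genes most like *Trim63* were *Tmem140* (0.96), *Dgkd* (0.95) and *Herpud2* (0.95), and those most like *Fbxo32* were *Myl12a*, which encodes a regulatory light chain of non-muscle myosin, and the autophagy genes *Ulk1* and *Wipi1* (0.90 for each of the 3). The Spearman (rank) correlation with *Trim63* over the same 14 libraries was 0.93 for *Tmem140*, 0.78 for *Dgkd* and 0.91 for *Herpud2*. With *Fbxo32* it was 0.82 for *Myl12a*, 0.93 for *Ulk1* and 0.91 for *Wipi1*. These genes were picked as the highest Pearson r of all genes ranked, so the size of their r partly reflects that selection. No background of r over all genes was computed, for them or for the pairs of members.

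**Figure D4:**
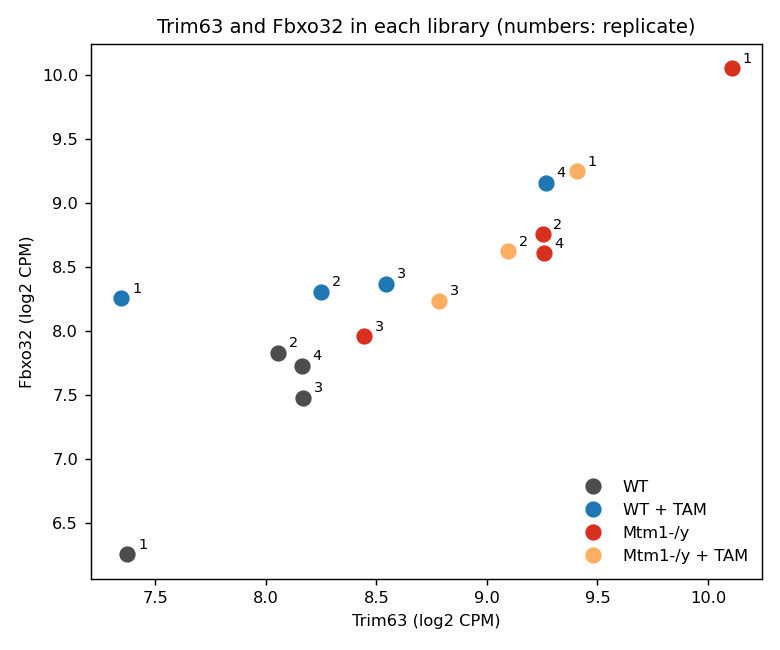
Log2 CPM of *Fbxo32* against *Trim63* in the 15 libraries, coloured by group and numbered by replicate. Libraries high in one gene are high in the other, from WT replicate 1 at 76.5 CPM of *Fbxo32* to *Mtm1*-/y replicate 1 at 1061 CPM, and WT + TAM replicate 1 has little *Trim63* (163 CPM) beside 306 CPM of *Fbxo32*.

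The rest of the ubiquitin pathway was described by 5 lists with 100 genes in all, each of which passed the filter. Of the 100, 34 were called in *Mtm1*-/y against WT and 31 in *Mtm1*-/y + TAM against WT + TAM mice by edgeR, where 30.4% and 20.1% of all genes were called. By direction, 15.5% of all genes were higher and 14.9% lower in the first comparison, and 10.6% and 9.46% in the second. Of 21 genes for ubiquitin, its activating and conjugating enzymes and the SCF core, 2 were lower in *Mtm1*-/y than in WT mice and none higher by edgeR, with 1 lower and none higher under tamoxifen. The conjugating enzymes *Ube2n* (-0.68, SE 0.19, adjusted p 0.0139) and *Ube2d3* (-0.35, SE 0.12, adjusted p 0.0461) were the lower ones, and under tamoxifen they differed by -0.15 and -0.28 between the genotypes without being called. Their levels were 30.1 ± 3.16 and 18.8 ± 6.12 CPM for *Ube2n* and 203 ± 11.9 and 159 ± 30.1 CPM for *Ube2d3* in WT and *Mtm1*-/y mice (SD, n = 4 each). Without *Mtm1*-/y replicate 1 the mutant means were 21.8 ± 1.43 CPM for *Ube2n* and 152 ± 31.7 CPM for *Ube2d3* (SD, n = 3 each). The median log2 fold change of the list was 0.07, against 0.00047 for all genes.

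Among 25 other E3 ligases and ligase adaptors of muscle, 3 were higher and 5 lower in *Mtm1*-/y mice, and 4 higher and 6 lower in *Mtm1*-/y + TAM against WT + TAM mice, with medians of 0.05 and -0.23. *Klhl40* (1.07, SE 0.20, adjusted p 0.00126) and *Klhl41* (0.55, SE 0.12, adjusted p 0.00386), kelch adaptors that stabilise thin-filament proteins and are mutated in nemaline myopathy, were higher, and the kelch gene *Kbtbd13* (-1.73, SE 0.27, adjusted p 0.000395) and *Smurf2* (-0.64, SE 0.09, adjusted p 0.000192), a ligase of TGF-beta signalling, were lower. All 4 were called in the same direction under tamoxifen, with 1.22, 0.51, -0.97 and -0.70. *Kbtbd13* averaged 26.6 ± 2.31 CPM among WT and 8 ± 3.48 CPM among untreated mutant mice (SD, n = 4 each), and 11.4 ± 1.72 CPM in *Mtm1*-/y + TAM mice (SD, n = 3).

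Of 12 deubiquitinases, which remove ubiquitin, 5 were higher in *Mtm1*-/y mice and none lower by edgeR, where 15.5% of all genes were higher and 14.9% lower. Without *Mtm1*-/y replicate 1 the count was 6 higher and 2 lower, where 29.6% of all genes were called in either direction. Under tamoxifen 4 were higher and none lower, and the medians were 0.31 and 0.16. *Uchl1* rose from 1.28 ± 0.351 to 8.46 ± 4 CPM (SD, n = 4 each), or by 2.74 on the log2 scale (SE 0.46, adjusted p 0.000722), and *Cyld*, which counters signalling through *Traf6*, rose from 26.6 ± 0.924 to 42.7 ± 5.77 CPM (0.68, SE 0.11, adjusted p 0.0003). The changes under tamoxifen were 2.61 and 0.49, both called.

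Of 24 upstream regulators of the ligase genes, 9 were higher and 3 lower in *Mtm1*-/y mice, and 6 higher and 5 lower under tamoxifen. Without *Mtm1*-/y replicate 1 the comparison of untreated mice gave 10 higher and 5 lower, where 29.6% of all genes were called in either direction. The BMP ligand *Gdf5* (3.66, SE 0.71, adjusted p 0.00222) and the AP-1 subunit *Junb* (2.91, SE 0.23, adjusted p 2.66e-06), both of which are linked to the maintenance of muscle mass, were higher, and the myostatin gene *Mstn*, whose product limits muscle mass (-2.22, SE 0.41, adjusted p 0.00169), and the FOXO factor *Foxo4* (-0.39, SE 0.12, adjusted p 0.0216) were lower. *Gdf5* ranged from 1.27 to 23.8 CPM in *Mtm1*-/y mice against 0.516 to 0.929 CPM in WT, and its log2 fold change was 2.57 without *Mtm1*-/y replicate 1. Under tamoxifen the differences were 3.11 for *Gdf5*, 1.77 for *Junb*, -3.04 for *Mstn* and -0.78 for *Foxo4*, all called.

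Of 18 known substrates and partners of the ligases, 4 were higher and 3 lower in *Mtm1*-/y mice, with 3 higher and 2 lower under tamoxifen. The intermediate filament gene *Des* rose from 3126 ± 202 to 6577 ± 937 CPM (1.07, SE 0.12, adjusted p 3.1e-05), and *Myod1*, which encodes the *Fbxo32* target MyoD, rose from 10.9 ± 3.6 to 21.9 ± 3.89 CPM (1.00, SE 0.22, adjusted p 0.0033, SD, n = 4 for each level). *Mybpc2*, the fast myosin-binding protein C gene (-0.95, SE 0.23, adjusted p 0.00565), and *Tab2*, an adaptor downstream of *Traf6* (-0.88, SE 0.12, adjusted p 8.64e-05), were lower. *Mybpc2* averaged 10531 ± 1787 CPM among WT and 5463 ± 1872 CPM among *Mtm1*-/y mice (SD, n = 4 each). Its mutant mean was 6376 ± 504 CPM without *Mtm1*-/y replicate 1 (SD, n = 3). Under tamoxifen *Des* (1.09), *Myod1* (1.03) and *Tab2* (-1.11) were called and *Mybpc2* (-0.68, adjusted p 0.0625) was not.

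With tamoxifen in either genotype, and in the interaction, edgeR called none of the 100 genes, and 5 (mutant), 8 (wild type) and 11 (interaction) had an unadjusted p under 0.05. limma-voom called none in these 3 tests, and DESeq2 called none in the mutant, 2 in the wild type and 4 in the interaction. The genes called by DESeq2, named here after their values were seen, are known activators of *Trim63*, *Fbxo32* or both. They were *Foxo3* (log2 fold change 1.01, adjusted p 0.0262 by DESeq2, 0.199 by edgeR) and *Cebpb* (1.30, adjusted p 0.0197 by DESeq2, 0.157 by edgeR) with tamoxifen in the wild type. In the interaction they were *Foxo1* (-2.19, adjusted p 0.0268 by DESeq2, 0.357 by edgeR), *Foxo3* (-1.62, 0.0279 and 0.321), *Klf15* (-2.0, 0.0268 and 0.357) and *Cebpb* (-2.26, 0.00827 and 0.266). DESeq2 was fitted to all 15 libraries only, so these calls were not tried without *Mtm1*-/y replicate 1. *Fbxo32* was not called by DESeq2 in either of these tests, and a link between these genes and the ligase values was not tested.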

How the data were processed

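RNA had been extracted from tibialis anterior muscle with TRI Reagent and made into TruSeq stranded mRNA libraries. The authors deposited raw counts per Ensembl gene, a column per mouse, without normalization. HTSeq 0.6.1p1, STAR 2.5.3a, Bowtie2 2.2.8 and cutadapt 1.10 are listed in the submitters' processing notes, with mm10/GRCm38 as the build. What each tool did, the annotation release and the strand setting were not given in the sources used here. Identifiers (30672 of 30672) were matched to GENCODE M21 for symbols, exons and lengths.

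Counts were analysed in R 4.3.3 with edgeR 4.0.16: filterByExpr with the 4 groups (minimum count 10), TMM factors, and a quasi-likelihood model of 4 group means over all 15 libraries (robust, 11 residual degrees of freedom), adjusted by Benjamini-Hochberg over 15533 genes and called under 0.05. The method was tested on simulated counts. Log2 CPM had a prior count of 2, and TPM used the summed exon length. The SE of an edgeR log2 fold change was its absolute value divided by the square root of its quasi-likelihood F statistic. Comparisons share libraries, so their values are given side by side. DESeq2 1.42.0 and limma-voom (limma 3.58.1) were alternatives. The paper that was read has no tamoxifen cohort, so the design follows the labels alone.

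Members and lists were chosen with earlier results of these data known. Named genes were the 10 members, *Mtm1*, the 2 called genes of each list with the largest change in each direction in Mtm1-/y against WT (mean log2 CPM of at least 1), and the 3 genes with the highest within-group r to *Trim63* and *Fbxo32*. The labels give no batch or litter, so p-values measure only the spread between these samples. *Fbxo32* shares 186 exonic bases with the antisense gene *Gm15943* (85 counts in all) and *Trim54* shares 382 with *Gm15469* (20 counts). Whether reads in these stretches were left uncounted depends on the strand setting and was not tested.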

Additional observations from a re-analysis of the deposited data

Results flagged for a closer look

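In groups of 4 libraries, a value was singled out when its gap to the nearest other library took up most of the range of the group. Of the 33 groups examined, 3 held such a library, where chance alone gives about 1 in 20. *Trim63* had 7.37 log2 CPM in WT replicate 1 and 8.06 to 8.17 in the other WT libraries. *Fbxo32* had 9.16 log2 CPM in WT + TAM replicate 4 and 8.26 to 8.37 in the other WT + TAM libraries. *Fbxo40* had 8.55 log2 CPM in WT + TAM replicate 1 and 8.92 to 8.94 in the others. Without WT replicate 1, the log2 fold change of *Trim63* in Mtm1-/y against WT was 1.26 (adjusted p 0.0436 by edgeR).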

How the results depend on the processing

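Of 1240 values of single members under the alternatives, 1206 kept their direction and side of the threshold, 31 lost a call and 3 gained one. None changed sign while called, and 50 values called under neither setting did. For Mtm1-/y against WT, 2 members were called when an absolute log2 fold change over 1 was also required, and leaving out a library gave 3 (without Mtm1-/y replicate 1) to 7 (without Mtm1-/y replicate 4, when *Fbxo21* was called as well). The other settings gave 4 to 6, with 4 from the libraries of the 2 groups alone. *Trim63* was called in all 25 alternatives, *Trim55* and *Fbxo30* in 24, *Fbxo32* in 23, *Nedd4* in 19 and *Cblb* in 5. For Mtm1-/y + TAM against WT + TAM, 0 members were called with the threshold on the log2 fold change and 3 without both Mtm1-/y replicate 1 and WT + TAM replicate 1. With the replicate number as a block, 5 members were called between the untreated genotypes (*Cblb* was not) and the other counts were unchanged. Calls over all genes moved with the setting too. Without Mtm1-/y replicate 1 they went from 4727 to 4524 between the untreated genotypes and from 3121 to 4097 between the treated ones. In the other settings the counts of members were not set against the share of all genes called. The labels name no pairing, so the replicate numbers were not taken as one. Same-numbered libraries of different groups deviated together (r over 0.1) in 6 of 21 pairs. The highest r was 0.31, between replicates 2 of Mtm1-/y and Mtm1-/y + TAM. Pairs with different numbers were not examined, so these r cannot decide whether the numbers mark pairs. With the length of the longest transcript, *Trim63* took 30.4% of the MuRF family in WT and 52.3% in Mtm1-/y + TAM mice, and was above *Trim54* in 6 of 15 libraries, against 1 with the summed exons. The same length, tried for the levels of all members after the data were seen, also put *Nedd4* above *Fbxo40* in WT and *Trim63* above *Trim54* in Mtm1-/y mice by the mean. Over all 15 libraries, the r to *Trim63* was 0.88 (*Tmem140*), 0.90 (*Dgkd*) and 0.82 (*Herpud2*), and that to *Fbxo32* 0.93 (*Myl12a*), 0.92 (*Ulk1*) and 0.78 (*Wipi1*). The members had at least 256 counts in every library (*Fbxo21*), and what depth limits was not tested. Of the 6 calls between untreated genotypes 3 (*Fbxo32*, *Nedd4* and *Cblb*) were lost without Mtm1-/y replicate 1, with adjusted p of 0.0527, 0.0638 and 0.165. Protein and ligase activity were not measured.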
